A study of Mus musculus with 16 samples.

Results

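Clu, Msln, Mal, Ly6a and Spp1 are genes used as markers of fetal and damaged gut epithelium. They were taken as a list of 5 gene symbols, and every microarray probe set annotated with that single symbol was read. Of the 5 genes, 3 had such a probe set, with 1 probe set each: Clu, Msln and Mal. These 3 stand among 22180 genes with a single-symbol probe set, and all 3 passed the filter on dim genes. The genes Ly6a and Spp1 had no probe set named here and were not analysed here. The genes were selected on values measured on these same arrays, without a record of which samples or threshold were used, so every difference that involves epithelium or adenoma is counted as used. The levels of the 3 genes and their differences that involve epithelium or adenoma are therefore a description. Where such a difference is also called at a threshold over all tested genes, nothing is read from the call.

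During development the gut epithelium passes through a fetal state that lacks mature crypts, and the adult epithelium can take up parts of that programme again after injury. Clu encodes clusterin, a secreted chaperone of the extracellular space, which in mice marks rare crypt cells that appear after irradiation. Msln encodes mesothelin, a surface protein held by a lipid anchor that is typical of mesothelium and binds the mucin Muc16. Mal encodes a membrane-spanning proteolipid of lipid rafts that takes part in transport to the apical surface of epithelial cells. Of the genes not analysed here, Ly6a encodes the surface antigen Sca-1 and Spp1 the secreted ligand osteopontin. Clusterin and osteopontin are thus secreted rather than surface proteins.

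RNA came from small intestinal cells of C57Bl/6 mice, all labelled male, killed at 8 to 10 weeks. The groups were Apc+/1638N adenoma cells (4 animals on 6 arrays), wild-type epithelial organoids grown with wild-type myofibroblasts (n = 2), the same 2 animals' organoids grown alone (n = 2), wild-type myofibroblasts grown with organoids (n = 3) and the same 3 animals' myofibroblasts grown alone (n = 3). In co-culture a membrane with 0.4 µm pores kept the cell types apart for 24 h. Apc restrains Wnt signalling, and animals with 1 mutant copy develop intestinal adenomas. The adenoma labels carry "n=3", whose meaning is not explained, and give no culture condition particular to adenoma cells. Adenoma and organoids thus differ in genotype and possibly in handling, which cannot be told apart.

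Levels are log2 probe set values, and the 16 arrays had medians of 3.48 to 3.58. Precision is limited by the small number of samples. Repeat arrays of an adenoma animal differed with an SD of 0.42 or 0.43 over probe sets, and different adenoma animals with an SD of 0.40 to 0.63. The SD between animals used the mean of the repeat arrays for P21 and P34, so these values are not measured alike. For P23 and P36, with 1 array each, it was 0.63, but only P23 of these has T2 in its title. The SD was 0.42 between P21 and P23, both titled T2, and 0.40 between P34 and P36. Pairs across titles had 0.55 to 0.63. Epithelial markers averaged 10.34 to 10.62 in adenoma samples, 11.32 to 11.44 in co-cultured and at most 11.09 in monocultured organoids, but 3.15 to 3.60 in all fibroblast cultures. Macrophage markers averaged 8.44 to 9.05 in the fibroblast cultures and at most 4.16 elsewhere. Of the 12 macrophage markers Mrc1 rose in co-cultured organoids, by 1.34 ± 0.29 (limma, adjusted p = 0.0250), while Cd68 differed by 1.03 ± 0.28 and did not pass. In adenoma against monoculture Cd68 and Cd14 rose by 2.35 ± 0.25 and 1.76 ± 0.25, and Itgam, Mrc1 and Adgre1 fell. Of all tested genes 2.71% were called higher and 1.32% lower in co-culture, and 22.5% and 18.5% in adenoma against monoculture. In co-culture 0 of the 12 passed without P28 and Pl_III, and in adenoma 2 rose and 2 fell. With the animal as a block Cd68 passed in co-culture as well, in a fit that called 1922 of 18095 tested genes. The part of these markers in the results below was not tested. In 4 of the 14 biological samples, namely the organoid pair of P28 and the fibroblast pair of Pl_III, Xist (7.57 to 8.29) lay above the Y-linked Eif2s3y (2.53 to 3.20), against the male label. Values without these samples are given beside the differences of Clu, Msln and Mal and beside many list counts. For most other named genes and for the remaining counts they are not given. In bulk RNA, more cells of a type and more RNA per cell cannot be told apart.

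The promoter of Mal is shown because Mal is the one of the 3 genes matched in RefSeq's promoter table (GRCm38.p6), at chr2:127656646-127656945 on the minus strand. The window runs from 250 bases before to 50 bases after the start site. Capitals mark the single match to GGAATG, the core letters bound by TEAD factors, the DNA-binding partners of the coactivator YAP.
Mal: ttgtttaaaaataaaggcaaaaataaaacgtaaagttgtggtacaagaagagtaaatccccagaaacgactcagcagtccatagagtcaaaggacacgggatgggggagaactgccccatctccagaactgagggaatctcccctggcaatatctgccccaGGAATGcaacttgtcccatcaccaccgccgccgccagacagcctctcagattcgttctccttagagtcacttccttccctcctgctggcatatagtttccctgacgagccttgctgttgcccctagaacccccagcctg
The match lies at position -89 relative to the start site. On either strand, 14.7% of the 32851 promoter windows of this length hold GGAATG. The letters TGANTCA (AP-1, in 7.81% of windows), the interferon-stimulated response element (in 3.44%) and TATAAA (in 13.6%) were not in this window. A match to these letters does not show that a factor binds there.

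Clu, the clusterin gene, stood highest in adenoma, next in co-cultured organoids, then in monocultured organoids, and lowest in fibroblasts. Its levels were 11.49, 11.50, 11.72 and 11.61 in adenoma animals P21, P23, P34 and P36. They were 10.25 and 10.65 in co-cultured organoids of animals P28 and P30, against 8.51 and 9.51 in the same animals' monocultures. Fibroblasts of animals Pl_I, Pl_II and Pl_III had 5.56, 5.88 and 5.01 in co-culture, against 5.27, 5.52 and 5.03 alone. The 3 epithelial groups did not overlap one another or the fibroblasts, while both fibroblast groups overlapped.

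Msln, the mesothelin gene, followed the same order of groups down to the fibroblasts. Adenoma animals P21, P23, P34 and P36 had levels of 10.92, 10.76, 11.58 and 11.41. Co-cultured organoids of P28 and P30 had 9.90 and 10.52, against 6.83 and 7.86 in monoculture. Fibroblasts had 2.90, 3.67 and 3.25 in co-culture and 3.56, 3.05 and 3.34 alone, close to the level of 2.67 at which genes were filtered as dim. The gap between fibroblasts and epithelium may therefore be understated, since low array values are compressed.

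For Mal, the raft proteolipid gene, adenoma and co-cultured organoids overlapped. Levels were 8.63, 9.01, 10.21 and 10.45 in adenoma animals P21, P23, P34 and P36. Co-cultured organoids of P28 and P30 had 8.93 and 9.06, against 5.68 and 6.53 in monoculture. The co-culture values thus lay between those of the adenoma animals, and both lay above every monoculture value. Fibroblasts had 3.53, 2.91 and 2.68 in co-culture and 3.47, 3.14 and 3.09 alone, again close to the dim level.

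**Figure D1:**
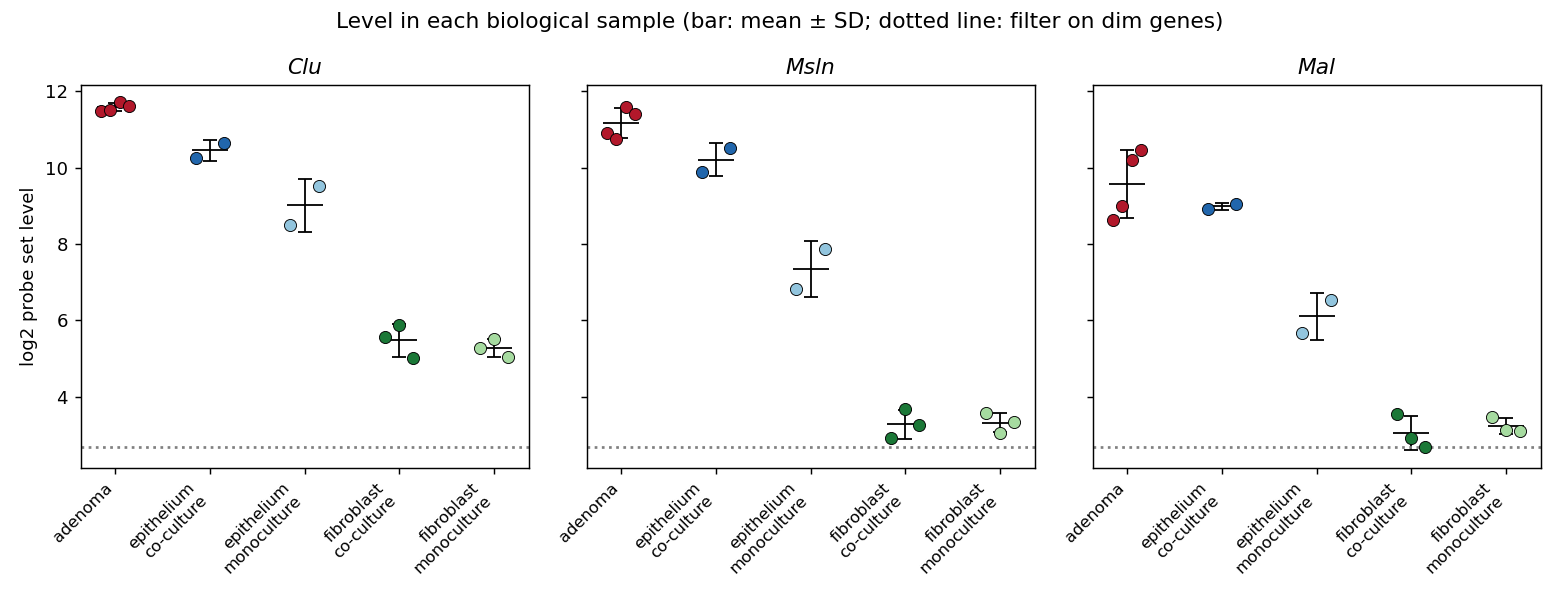
Log2 probe set level (vertical axis) of Clu, Msln and Mal in each of the 14 biological samples (points) by group, with the group mean ± SD (bars) and the filter on dim genes at 2.67 (dotted line). Adenoma and co-cultured organoids lie above monocultured organoids for each gene, fibroblasts lie lowest, and for Mal the adenoma animals spread from 8.63 to 10.45 around the co-cultured organoids.

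The first comparison asks what organoids do when myofibroblasts share their medium. Clu averaged 10.45 ± 0.28 in co-cultured and 9.01 ± 0.71 in monocultured organoids (SD, n = 2 each), a log2 difference of 1.44 ± 0.32 (SE, limma) or 2.72-fold. Msln averaged 10.21 ± 0.44 in co-culture and 7.35 ± 0.73 in monoculture (SD, n = 2 each), a difference of 2.86 ± 0.38 or 7.28-fold. For Mal the means were 8.99 ± 0.10 in co-culture and 6.10 ± 0.60 in monoculture (SD, n = 2 each), a difference of 2.89 ± 0.54 or 7.42-fold. Each gene was higher in co-culture in both animals. The difference was 1.74 in P28 and 1.14 in P30 for Clu, 3.07 and 2.66 for Msln, and 3.25 and 2.53 for Mal, while the median of all tested genes was -0.01 and -0.02.

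Among 18095 tested genes, 2.71% were called higher and 1.32% lower in co-culture (limma, adjusted p under 0.05), and Clu, Msln and Mal were all called higher. Groups that did not overlap in that direction were seen for 25.5% of tested genes and for the 3 genes. Since the genes were chosen with these values known, nothing is read from these counts. The values without animal P28 are those of P30 alone, with 1 sample a group assumed to vary like the other groups, and 0 of the 3 genes were then called. With 1 sample left out, the calls of Clu and Mal were lost without the P28 monoculture and without either co-culture sample, and that of Msln was kept in each of the 4 fits. Fitted on the compared groups alone, 0 genes were called at all, against 3659 at an unadjusted p under 0.05. A replicate block for the animal raised the calls to 1922, against 729 without it, and included all 3. The 10 epithelial markers were also all higher on average in co-culture, by a median of 0.36, with 0 called and 1 at an unadjusted p under 0.05 (limma). The part of that shift in the result was not tested.

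**Figure D2:**
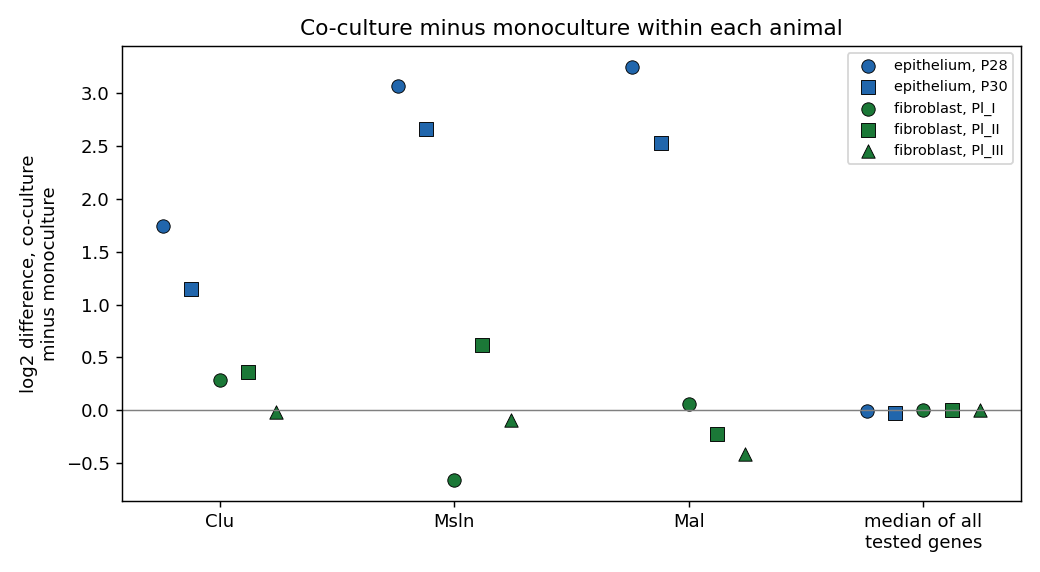
Log2 difference, co-culture minus monoculture, within each animal (vertical axis) for Clu, Msln, Mal and the median of all tested genes, with organoid animals in blue and fibroblast animals in green. Both organoid animals lie between 1.14 and 3.25 for the 3 genes, and the 3 fibroblast animals lie between -0.66 and 0.62.

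The fibroblasts' own response to organoids did not pass the test for any of the 3 genes. The log2 difference was 0.21 ± 0.26 for Clu, -0.04 ± 0.31 for Msln and -0.19 ± 0.44 for Mal (SE, n = 3 each; limma, adjusted p = 1.00 for each, unadjusted p = 0.445, 0.892 and 0.669). In this comparison 0.00553% of tested genes, a single gene, were called, and 513 had an unadjusted p under 0.05. Within animals Pl_I, Pl_II and Pl_III the difference was 0.29, 0.36 and -0.02 for Clu, -0.66, 0.62 and -0.09 for Msln, and 0.06, -0.23 and -0.41 for Mal. The animals thus disagreed in sign for each gene. Without Pl_III the differences were 0.32, -0.02 and -0.08.

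Set side by side, the organoid response exceeded the fibroblast response by 1.23 ± 0.42 for Clu, 2.91 ± 0.50 for Msln and 3.08 ± 0.69 for Mal (SE, limma interaction). Of all tested genes 0.834% were called with a more positive response in organoids, and of the 3 genes Msln was. The organoid difference enters this value, so nothing is read from the call. A replicate block for the animal called all 3, among 862 genes, against 200 without it. Without P28 and Pl_III the values were 0.82, 2.68 and 2.61 and 0 of the 3 were called. Msln and Mal lie near the dim level in fibroblasts, where a fall could hardly be seen.

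The next comparison sets adenoma cells against wild-type organoids grown alone. Clu averaged 11.58 ± 0.10 in adenoma (SD, n = 4) and 9.01 ± 0.71 in monoculture (SD, n = 2), a log2 difference of 2.57 ± 0.28 (SE) or 5.93-fold. Msln averaged 11.17 ± 0.39 in adenoma and 7.35 ± 0.73 in monoculture, a difference of 3.82 ± 0.33 or 14.1-fold. Mal averaged 9.57 ± 0.89 in adenoma and 6.10 ± 0.60 in monoculture, a difference of 3.47 ± 0.46 or 11.1-fold. All 4 adenoma animals lay above both monocultures for each gene, a pattern held by 28.7% of tested genes. All 3 genes were called, as were 22.5% of tested genes in that direction and 18.5% in the other, and nothing is read from this. Without P28 the differences were 2.07 for Clu, 3.30 for Msln and 3.04 for Mal, all called.

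Against co-cultured organoids the adenoma differences were smaller in size. They were 1.13 ± 0.28 for Clu, 0.96 ± 0.33 for Msln and 0.58 ± 0.46 for Mal (SE, 4 adenoma against 2 co-culture samples). Clu and Msln, 2 of the 3, were called higher and did not overlap. Among all tested genes 19.0% were called higher, 14.3% were called lower and 27.5% did not overlap in that direction. Nothing is read from these counts either, since the genes were chosen with such values known. Both adenoma comparisons share the adenoma samples, and the co-culture and adenoma comparisons share the monocultures, so these values are not independent of each other. The call of Msln was lost in 9 of 18 alternatives, among them those without either co-culture sample, without adenoma animal P34 or without P36. That of Clu was lost in 1 of 18, without the P28 co-culture sample. Without P28 the differences were 0.93, 0.65 and 0.51.

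The adenoma animals themselves fell into the 2 whose titles carry "T2" (P21 and P23) and the other 2 (P34 and P36). For Mal the mean was 8.82 in the animals titled T2 and 10.33 in the others, a difference of -1.51. The difference was -0.66 for Msln (10.84 in T2 animals, 11.50 in the others) and -0.17 for Clu (11.50 in T2 animals, 11.66 in the others). In each of the 3 genes both T2 animals lay below both others, a pattern seen in 26.0% of tested genes. Repeat arrays of one adenoma animal gave Mal levels of 8.56 and 8.71 in P21 and 10.23 and 10.19 in P34. With P34 and P36 left out, a choice made after the values were seen, the difference of Mal between adenoma and co-cultured organoids was -0.17. With P21 and P23 left out instead, the difference was 1.34 and was called, in this 1 of 18 alternatives only. Leaving out the 2 adenoma animals with the lowest Mal raises the difference by construction, so nothing is read from that call.

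Fibroblasts grown alone had less of each gene than organoids grown alone. The log2 difference was -3.74 ± 0.30 for Clu, -4.03 ± 0.35 for Msln and -2.87 ± 0.49 for Mal (SE, 3 fibroblast against 2 organoid samples). All 3 genes were called lower and did not overlap, against 24.2% of tested genes called lower, 26.5% called higher and 33.2% that did not overlap. Without P28 and Pl_III the differences were -4.12, -4.56 and -3.23. These values too are a description.

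Other genes of the fetal and repair programme were read from a list of 20, of which 17 were tested. This list and those below were chosen with earlier results of these data known, so their counts and p-values are not independent support. In co-cultured against monocultured organoids 9 of them rose and 0 fell, with a median log2 difference of 1.28 against -0.02 over all tested genes. Of all tested genes 2.71% were called higher and 1.32% lower in this comparison. Anxa1, a phospholipid-binding annexin, averaged 10.68 ± 0.21 in co-culture and 8.71 ± 0.01 in monoculture, and rose by 1.97 ± 0.16 (limma, adjusted p = 1.87e-04). The annexins Anxa8 and Anxa3 rose by 2.72 ± 0.35 and 2.40 ± 0.36, and the alarmin Il33 by 2.24 ± 0.34. Gap junction gene Gja1 differed by -0.45 ± 0.68 and did not pass. Without P28 and Pl_III 2 of the 17 rose, and with 1 sample left out at a time 3 to 6 did, the lowest without the P28 monoculture.

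In adenoma against monocultured organoids 10 of the 17 rose and 0 fell, with a median of 1.26 against -0.03 over all tested genes, and 10 rose and 0 fell without P28 and Pl_III. Of all tested genes 22.5% were called higher and 18.5% lower in adenoma against monoculture. Basp1, a membrane-bound signalling protein, rose by 4.41 ± 0.40, Il33 by 3.48 ± 0.30, Anxa3 by 3.24 ± 0.31 and Anxa1 by 2.99 ± 0.14 (limma, adjusted p at most 6.05e-06). Against co-cultured organoids 4 rose and 4 fell, with a median of -0.12 against 0.01. Of all tested genes 19.0% were called higher and 14.3% lower there, and nothing is read from these counts about the list. Gja1 averaged 7.35 ± 0.64 in adenoma and 2.37 ± 0.29 in co-culture and rose by 4.98 ± 0.59, and Basp1 rose by 4.24 ± 0.40. Anxa1 rose by 1.03 ± 0.14, and the membrane protein gene Emp1 fell by 1.24 ± 0.18. Without P28 and Pl_III 4 rose and 2 fell.

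**Figure D3:**
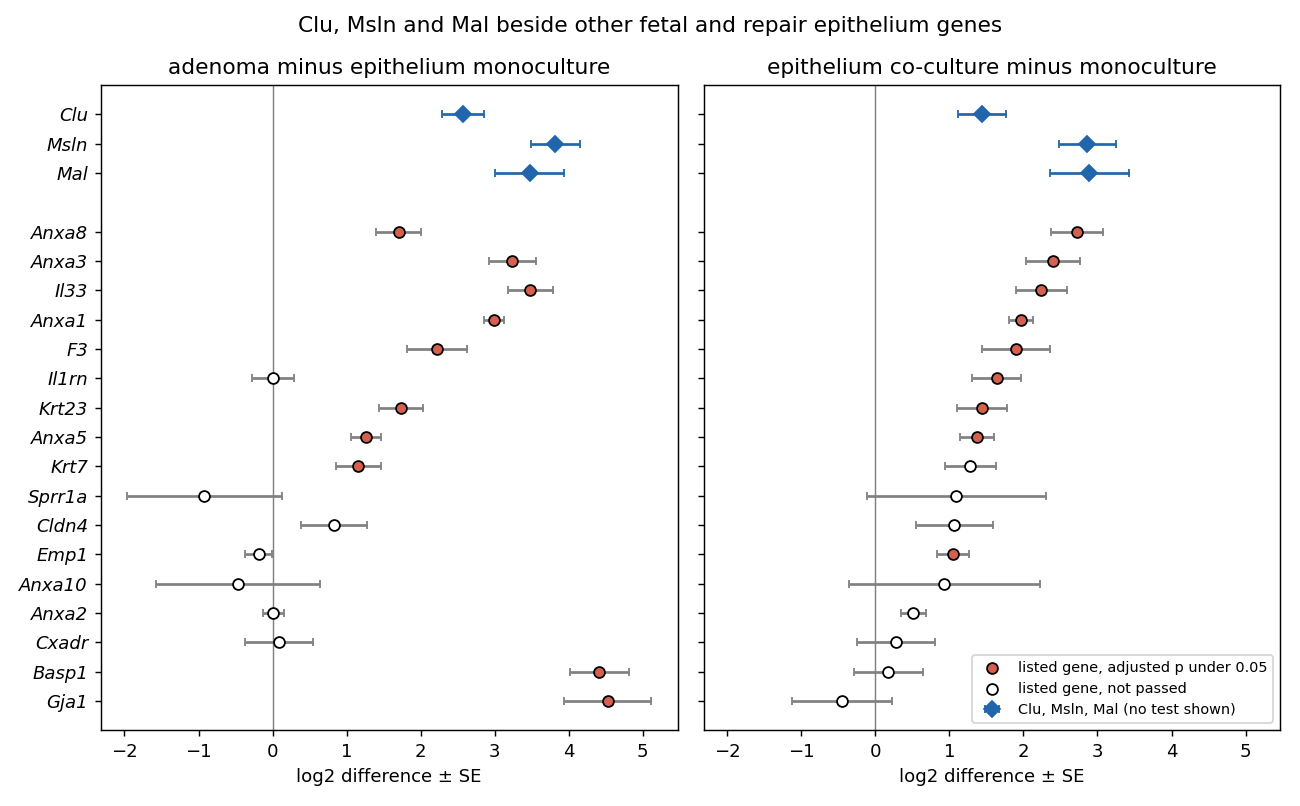
Log2 difference ± SE (horizontal axis) of Clu, Msln and Mal (blue diamonds) and of the 17 other fetal and repair genes tested, in adenoma minus epithelium monoculture (left) and in epithelium co-culture minus monoculture (right). Filled circles mark the 10 genes that rose in adenoma and the 9 that rose in co-culture, and Basp1 lies at 4.41 in the left panel and 0.18 in the right.

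YAP is a coactivator of the Hippo pathway linked to epithelial repair, and 21 of its 22 listed targets were tested. In co-cultured organoids 4 rose and 0 fell (median 0.35): Ptpn14 by 2.22 ± 0.21, Asap1 by 1.45 ± 0.29, Ccn1 by 1.73 ± 0.35 and F3 by 1.90 ± 0.46. F3, the tissue factor gene, stands in both lists. In adenoma against monoculture 11 rose and 2 fell (median 1.17), with Myof at 7.07 ± 0.32, Ptpn14 at 4.91 ± 0.18, Ccn2 at 4.58 ± 0.37 and Ccn1 at 4.19 ± 0.31. Of all tested genes 22.5% were called higher and 18.5% lower there (median -0.03), and 2.71% and 1.32% in co-culture (median -0.02). In fibroblasts against organoids, both alone, 17 of the 21 targets were called higher and 1 lower (median 4.32). Of all tested genes 26.5% were called higher and 24.2% lower in that comparison. Of 13 crypt stem cell genes 0 passed in co-cultured organoids by limma, 1 at an unadjusted p under 0.05 (median 0.04). In adenoma against monoculture 8 rose and 0 fell (median 2.14), among them Ascl2 by 4.51 ± 0.29 and Sox9 by 3.51 ± 0.28. The stem cell markers Lgr5 (0.55 ± 0.25) and Olfm4 (-2.46 ± 1.04) did not pass in adenoma against monoculture. Without P28 and Pl_III 1 YAP target rose in co-culture, 10 rose and 1 fell in adenoma against monoculture, and 8 stem cell genes rose there. With 1 sample left out at a time 1 or 2 YAP targets rose in co-culture, and with the replicate block 6 rose and 1 fell. With that block 2 stem cell genes also rose in co-culture, Ephb3 by 0.75 ± 0.17 and Slc12a2 by 0.54 ± 0.13 (limma, adjusted p = 0.0393 and 0.0474). The block fit called 1922 of 18095 tested genes in co-culture in either direction, so nothing is read from the stem cell count.

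Genes that partner with the 3 proteins were read next. Of 4 clusterin receptors 0 passed in co-cultured organoids by limma, and 0 had an unadjusted p under 0.05. With the animal as a block Lrp8, a lipoprotein receptor, rose in co-culture by 0.95 ± 0.13 (limma, adjusted p = 0.00829, against 0.422 without the block). That block fit called 1922 of 18095 tested genes in co-culture in either direction. In adenoma against monoculture Lrp8 rose by 2.34 ± 0.46 (limma, adjusted p = 0.00135), or by 2.30 without P28 and Pl_III, while Vldlr (0.50 ± 0.21), Lrp2 (-0.11 ± 0.12) and Trem2 (-0.01 ± 0.57) did not pass. Muc16, the partner of mesothelin, was below the filter on dim genes. Mesothelial markers, which Msln could accompany, averaged 3.28 to 3.56 in adenoma, 4.04 to 4.33 in co-cultured and 3.85 to 4.00 in monocultured organoids. Of the 4 tested 0 were called in co-culture by limma, 2 at an unadjusted p under 0.05. With the animal as a block Upk1b and Upk3b rose in co-culture, by 0.85 ± 0.15 and 0.62 ± 0.14 (limma, adjusted p = 0.0172 and 0.0400), and without P28 and Pl_III 0 did. In adenoma against monoculture 0 rose and 1 fell, while 22.5% of all tested genes were called higher and 18.5% lower. The part of the mesothelial markers in the result for Msln was not tested.

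The relatives of Mal did not move as one. Myadm rose by 0.73 ± 0.14 in co-cultured organoids (limma, adjusted p = 0.0160) and by 1.19 ± 0.12 in adenoma against monoculture, and its call in co-culture was lost without P28 and Pl_III, without the P28 monoculture, without either co-culture sample, with the compared groups alone and with a minimum difference of 1. Mall averaged 8.60 ± 0.07 in adenoma (n = 4), 11.39 ± 0.10 in co-cultured and 11.12 ± 0.11 in monocultured organoids (n = 2 each), so that it fell by 2.52 ± 0.24 in adenoma against monoculture, with a difference of -2.60 without P28 and Pl_III. Mal2 differed by 0.26 in both comparisons and Pllp by -0.13 in co-culture and 0.26 in adenoma, none of which passed. Without P28 and Pl_III Mal2 differed by 0.004 in co-culture and 0.07 in adenoma, and Pllp by -0.21 and 0.26. In fibroblasts against organoids, both alone, 1 of the 4 relatives was called higher and 3 lower, against 26.5% and 24.2% of tested genes.

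Relatives and partners of the genes not analysed here were read as lists only. Of 14 tested Ly6 family genes 3 rose in co-cultured organoids and 0 fell (Lynx1, Ly6g and Psca, by 1.78 ± 0.26, 3.31 ± 0.53 and 3.05 ± 0.71), and 0 rose without P28 and Pl_III. In adenoma against monoculture 6 rose and 1 fell, and 3 rose and 1 fell without P28 and Pl_III. With the replicate block 5 rose in co-culture, in a fit that called 1922 of 18095 tested genes in either direction. Of all tested genes, without that block, 2.71% were called higher and 1.32% lower in co-culture. In adenoma against monoculture the shares were 22.5% and 18.5%. Of 10 osteopontin receptor genes 3 rose in co-culture, Itgb6 by 1.37 ± 0.27, Itgav by 1.31 ± 0.26 and Cd44 by 1.70 ± 0.38, and 0 did without P28 and Pl_III. In adenoma against monoculture 4 of the receptor genes rose and 1 fell, with Itgb5 at -1.90 ± 0.30. Of 17 interferon response genes 2 rose and 3 fell in adenoma against monoculture. In co-cultured organoids 0 of the 17 passed by limma, and 0 had an unadjusted p under 0.05. The count was also 0 without P28 and Pl_III and with the replicate block.

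Across samples the levels of the 3 genes were close in pattern, given here as a description because cell type and group set most of the spread. Over the 8 organoid and adenoma samples Pearson's r was 0.97 for Clu with Msln, 0.97 for Msln with Mal and 0.91 for Clu with Mal. Without both P28 samples it was 0.96, 0.95 and 0.87 over 6 samples. Over all tested genes and the same 8 samples the closest to Clu were Vrk1 and Vars (0.996 and 0.995), the closest to Msln were Itgav and Pam (0.996 and 0.995), and the closest to Mal were Adam8 and Niban1 (0.996 and 0.993). Over all 14 samples 4930461G14Rik was closest to Clu (0.996), Clu to Msln (0.993) and Clic3 to Mal (0.994).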

How the data were processed

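The values deposited by the authors are log2 probe set levels, with RMA named in the submitters' processing notes. RMA corrects background, normalizes between arrays and summarises probes. The genome build is not given in these sources. Amplification started from 150 ng of RNA, per the labels' protocols. Repeat arrays of adenoma animals P21 and P34 were averaged, leaving 14 biological samples on 16 arrays. The third fibroblast monoculture names different animals in its labels, and its title was followed.

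Of 41345 probe sets 23521 had 1 gene symbol, 1814 several and 16010 were unnamed here. The probe set of highest mean stood for its gene. A gene was tested if any group mean was above 2.67, the 30th percentile over probe sets, leaving 18095 genes. Limma 3.58.1 in R 4.3.3 fitted 5 group means with 1 shared spread (2-sided, Benjamini-Hochberg over all tested genes, called at an adjusted p under 0.05), and was tested on simulated data. Listed genes named are those with up to the 4 smallest p per list and comparison, besides Gja1 and Basp1 in co-culture, chosen after their values were seen. The macrophage marker Adgre1 is named outside this rule, as a further marker that fell in adenoma against monoculture. The stem cell genes Lgr5 and Olfm4 are named outside it as well, after their values were seen. Members, lists and alternatives were chosen with earlier results of these data known.

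The labels take both cultures of a pair from 1 animal, and the paired samples' deviations correlated at 0.33 in epithelium and 0.51 to 0.79 in fibroblasts. Alternatives are given at the end. The shares of all tested genes beside list counts are those of the main fit. Alternative fits of the organoid co-culture comparison called other totals, also given there.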

Additional observations from a re-analysis of the deposited data

Results flagged for a closer look

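The co-culture response of Msln differed between organoids and fibroblasts by 2.91 on the log2 scale (SE 0.50), by limma's interaction term with adjustment over all tested genes. The call was lost without P28 and Pl_III, without the P28 monoculture, without the P30 co-culture and without the Pl_I co-culture. Msln was higher in co-culture in both organoid animals, while the 3 fibroblast animals differed in sign. Msln was chosen with the organoid values known, and the fibroblast levels lie close to the dim level. No sample of the adenoma group stood apart from the other 3 for Clu, Msln or Mal by Dixon's criterion. That criterion looks for a single outlying sample, so it cannot show the split between animals titled T2 and the others.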

How the results depend on the processing

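The differences of Clu, Msln and Mal kept their sign in every alternative for 16 of 18 gene and comparison pairs. The exceptions were Mal in adenoma against co-culture (-0.17 without P34 and P36) and Msln in fibroblasts (up to 0.14). Across alternatives the co-culture difference in organoids ran from 0.94 to 1.94 for Clu, 2.35 to 3.38 for Msln and 2.46 to 3.32 for Mal. Of 729 genes called in that comparison, none remained when the compared groups alone were fitted (limma, 0 called, 3659 at an unadjusted p under 0.05, fewer samples behind the spread), and Clu, Msln and Mal were not called either. There were 408 with a minimum difference of 1, 68 without P28 and Pl_III, 1922 with the replicate block, and 202 to 389 with 1 sample left out. In fibroblasts the 1 call was lost (0 called) with the compared groups alone, a trended robust prior, first adenoma arrays, the replicate block or without P28 and Pl_III, and 0 to 1 was called with 1 sample left out (404 to 1352 genes at an unadjusted p under 0.05 in these fits). For the difference of responses, 200 calls became 862 with the replicate block, 5 without P28 and Pl_III and 56 to 164 with 1 sample left out. Adenoma against monoculture gave 7422 calls, 4155 with a minimum difference of 1 and 5730 to 7205 with 1 sample left out. Against co-culture it gave 6022, 2974 with that minimum, 3984 without P28 and Pl_III and 3864 to 5814 with 1 sample left out. Fibroblasts against organoids gave 9174, 5797 with that minimum and 7482 to 8842 with 1 sample left out. Where sample numbers did not change, the causes were not tested. The alternative of other probe sets of a gene gave no value, since each of the 3 genes has 1. The replicate block added the calls of Clu and Mal in the difference of responses and changed no other call of the 3 genes. Levels near the filter on dim genes limit what can be said of Msln and Mal in fibroblasts.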
